A study of Drosophila melanogaster with 6 samples.

Results

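Translation factors are the proteins that load ribosomes onto mRNAs and drive them along the message, and 9 of their genes were examined here for RNA recovered with an antibody against N6-methyladenosine (m6A) from heads of Drosophila melanogaster. The genes were chosen by name (eIF4E1, eIF4G1, eIF4A, pAbp, eIF3a, eIF5B, eEF1alpha1, eEF1alpha2 and eEF2), and peaks were assigned by midpoint to the gene's span, from the first to the last annotated base with introns included. They are 9 of 13922 protein-coding genes on the 6 chromosome arms of the peak lists. Their spans held 128 of the 28206 peaks of 3 lists, namely 52 of 14329 in replicate 1, 37 of 7232 in replicate 2 and 39 of 6645 in replicate 3. None of the 128 peaks lay in the span of another protein-coding gene.

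The series compares 3 m6A-CLIP libraries with 3 input libraries, all from whole heads of w1118cs flies of both sexes on a standard diet, and its title concerns the translation of insulin mRNA. In m6A-CLIP, fragmented RNA is bound by the antibody, crosslinked to it by ultraviolet light and recovered with it, while the input is RNA that was not enriched. Heads were pooled within each biological replicate and poly(A) RNA was selected, per the labels' protocols, and the age of the flies is not given in the sources used here. All 6 libraries share genotype and diet, so there is no contrast between conditions, and each list combines the CLIP and the input library of the same replicate number.

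The labels name neurons as the cell type, but the material was whole heads. Of 5 neuronal marker genes 4 had a peak in all 3 lists (elav had none in replicate 3), and so did 3 of 3 glial, 3 of 3 photoreceptor, 3 of 3 muscle and 2 of 3 fat body markers (Lsp2 had one in replicate 1 alone). Among all protein-coding genes 13.7% had a peak in all 3 lists. Some of these markers had few or uneven peaks, such as repo with 1 in each list and bt with 91, 1 and 11.

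m6A is placed on mRNA by a methyltransferase complex around Mettl3 and Mettl14 and is read by YTH domain proteins. In flies it is abundant in the nervous system. Translation begins when eIF4E binds the 5′ cap, eIF4G bridges it to the helicase eIF4A and to the poly(A) binding protein at the other end of the mRNA, and eIF3 brings in the small ribosomal subunit. The GTPase eIF5B then helps the large subunit to join. During elongation eEF1alpha delivers aminoacyl-tRNA to the ribosome and eEF2 moves the ribosome along by a codon.

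All values below are per bin of 50 bp and were not scaled to library size. The CLIP value of a peak is its mean number of CLIP reads per bin, and the input value is a geometric mean of input reads per bin. A geometric mean lies below the plain mean where bins are unequal. In peaks of several bins, input can thus be understated beside CLIP. Median CLIP values of all peaks were 10, 38 and 10 in replicates 1, 2 and 3 and the lowest were 7, 25 and 7, so the lists differ in the fewest reads that a peak carries. The median input was 8, 13 and 14 reads per bin. A region shared by the lists carries, in each replicate, the values of the whole peak that holds it. CLIP was set against input as a log2 ratio after adding 1 read to each, and the median ratio of the list (0.17, 1.58 and −0.42) was subtracted, so that 0 is the middle of all peaks of a list and a positive value is a peak with relatively more CLIP than input.

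Of the 9 genes, 7 had a peak in all 3 lists (77.8%), against 13.7% of all protein-coding genes. By list, 8 of 9 had a peak in replicate 1 (27.3% of all genes), 7 in replicate 2 (17.6%) and 7 in replicate 3 (16.9%). The exceptions were eIF3a, with peaks in replicate 1, and eIF5B, with none. The background counts all genes whether or not heads express them, and the part of expression in these shares was not tested. The 9 genes were chosen with earlier results of these data known, so the shares are a description and not an independent contrast.

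**Figure D1:**
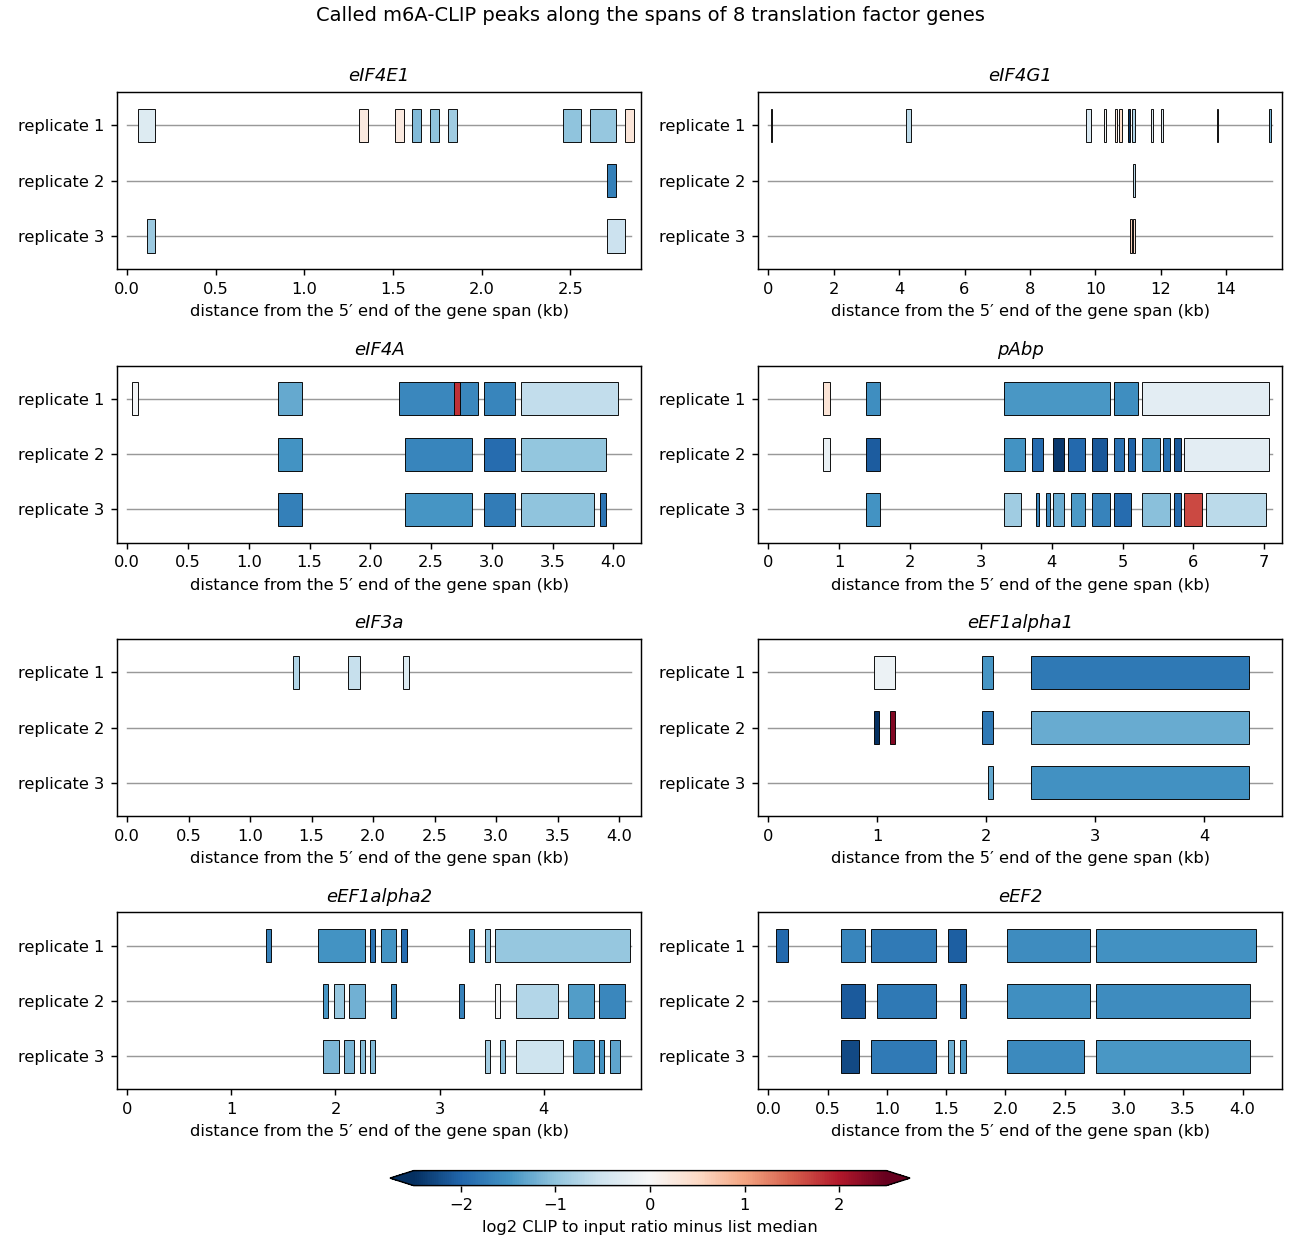
Called peaks (boxes) along the gene spans of the 8 genes with a peak, in kb from the 5′ end as read from the strand of most peaks, in each replicate, coloured by the log2 CLIP to input ratio minus the list median (darkest colours at differences of 2.5 or more in size). The box inside a longer one in eIF4A, replicate 1, is a peak on the opposite strand, and the eEF1alpha1 box of 2000 bp has the same ends in all 3 replicates.

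The cap-binding protein eIF4E1 (chromosome 3L, 9399618 to 9402460, dm6) had sparse, low peaks. There were 9 peaks in replicate 1, 1 in replicate 2 and 2 in replicate 3, all on the minus strand. They covered 650, 50 and 150 bp of a span of 2843 bp. A single bin, 9399701 to 9399750, was called in every list and lay at 96.2% of the span from the 5′ end. The peaks that hold it had 11.3, 30 and 7 CLIP reads per bin, beside 20.4, 33 and 14.5 reads of input. CLIP reads were thus fewer than input reads in each replicate, and the replicate 3 value is the lowest of its list. At the other end of the span, 9402301 to 9402350 was called in replicates 1 and 3, with 9 and 10 CLIP reads per bin, beside 10.2 and 27 reads of input.

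The scaffold gene eIF4G1 (chromosome 4, 915297 to 930715) had 12 peaks in replicate 1, 1 in replicate 2 and 2 in replicate 3, again all on the minus strand. Its span of 15419 bp is the second longest of the 9 genes, and the peaks covered 5.84%, 0.324% and 0.649% of it. The 12 peaks of replicate 1 had 7 to 11 CLIP reads per bin, at or just above the lowest of that list. The bin 919501 to 919550, at 72.6% of the span, was called in all 3 lists. Peaks holding it carried 9.5, 25 and 9 CLIP reads per bin, beside 14.8, 13 and 9 reads of input. The replicate 2 value equals the lowest of its list.

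The helicase gene eIF4A (chromosome 2L, 5981764 to 5985909) was covered far more densely, with 6, 4 and 5 peaks over 2000, 1700 and 1650 bp of 4146 bp. Of its 40 bins called in any list, 33 were called in all 3. The stretch from 5985001 to 5985600, centred at 85.3% of the span, had 36.2, 77.3 and 17.5 CLIP reads per bin, beside 49.7, 50.9 and 48.7 reads of input. This was the highest ratio among the 5 shared eIF4A regions, at −0.87 ± 0.22 (SD, n = 3), and the 3 other regions of over 50 bp, from 5983001 to 5983200, 5984051 to 5984600 and 5984701 to 5984950, had means from −1.78 to −1.49. Between 5981851 and 5983000 no bin was called in any list. On the opposite strand, replicate 1 had 1 peak at 5984451 to 5984500, with 7 CLIP reads against 1 input read, both the lowest values of the list. It was the only one of the 128 peaks that was not on its gene's main strand.

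The poly(A) binding protein gene pAbp (chromosome 2R, 18140078 to 18147191) had 5, 13 and 12 peaks over 3950, 3250 and 3000 bp, and 56 of the 79 bins called in any list were called in all 3. The larger number of peaks in replicates 2 and 3 came with less covered length. The stretch from 18143401 to 18144900 was 1 peak in replicate 1 and several separate peaks in each of the others. CLIP reads relative to input were not even along the gene. In the middle of the span, the region from 18144651 to 18144850 had 23.2, 48 and 13 CLIP reads per bin, beside 58.2, 69.8 and 58.2 reads of input, a centred ratio of −1.75 ± 0.33 (SD, n = 3). Near the 3′ end, the region from 18145951 to 18146200, at 84.3% of the span, had 38.9, 94.6 and 59.4 CLIP reads per bin, beside 41.9, 37.1 and 24.8 reads of input. Its centred ratio was −0.27, −0.26 and 1.64 across the replicates, averaging 0.37 ± 1.10 (SD, n = 3), and it was the single one of 35 regions called in all 3 lists with a mean above 0. That sign rests on replicate 3, in which the region is a peak of its own of 250 bp, while in replicates 1 and 2 it lies within peaks of 1800 and 1200 bp whose values are averages over the whole peak. The adjoining region from 18146251 to 18147100 had −0.40 ± 0.23 (SD, n = 3).

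The span of pAbp also holds 3 small nucleolar RNA genes of the snoRNA:Psi18S-1347 family between 18142802 and 18143324. None of them had a peak in any list. They lie in a stretch of 1750 bp, from 18141651 to 18143400, in which no bin was called. The 5′ part of pAbp had a peak at 18140851 to 18140950 in replicates 1 and 2, with 18.5 and 37.5 CLIP reads per bin, beside 12.7 and 13.5 reads of input. Its centred ratios of 0.34 and −0.17 were above the medians of the gene in those lists, which were −1.46 and −1.94.

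Of the other initiation factors, eIF3a, the large scaffold subunit of eIF3 (chromosome 3R, 4429798 to 4433895), had 3 peaks in replicate 1 and none in replicates 2 and 3. All 3 had 7 CLIP reads per bin, the lowest of that list, against 8, 9.54 and 11 input reads. eIF5B, the GTPase of subunit joining (chromosome 3L, 3428658 to 3460977), had no peak in any list although its span of 32320 bp is the longest of the 9 genes. Reads outside peaks were not listed, so for both genes a peak below the read minimum was not detectable.

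The elongation factor gene eEF1alpha1 (chromosome 2R, 11891135 to 11895762) had the most reads per called bin of the translation factor genes examined here, in every library. The region from 11893551 to 11895550 was called as 1 peak of 2000 bp with identical ends in all 3 lists. Counting this peak itself, 10, 9 and 9 peaks of the lists were at least as wide. It had 87.3, 219 and 41.9 CLIP reads per bin, beside 270, 175 and 162 reads of input, a centred ratio of −1.52 ± 0.26 (SD, n = 3). By CLIP reads per called bin the gene ranked 37 of 3794 genes with a peak in replicate 1, 80 of 2448 in replicate 2 and 81 of 2355 in replicate 3.

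A second stretch of eEF1alpha1 cannot be given to its mRNA alone. Peaks from 11893101 to 11893200 in replicates 1 and 2 and from 11893151 to 11893200 in replicate 3 overlap the gene snoRNA:Me28S-A1322 at 11893123 to 11893195, and had 40, 50.5 and 16 CLIP reads per bin, beside 99.7, 58 and 55 reads of input. Upstream, replicate 1 had 1 peak from 11892101 to 11892300, with 16.2 CLIP reads per bin, beside a geometric mean of 15.9 reads of input. The 2 values are unlike means, so they do not show that CLIP equalled input there. Replicate 2 had its first and last bin as separate peaks with very unequal input, with 51 CLIP against 199 input reads from 11892101 to 11892150 and 29 CLIP against 1 input read from 11892251 to 11892300. Replicate 3 had no peak there.

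The second gene for this protein, eEF1alpha2 (chromosome 3R, 31738468 to 31743306), had 8, 9 and 10 peaks, all on the plus strand, over 2150, 1350 and 1250 bp. Of 44 bins called in any list, 19 were called in all 3, a smaller share than in eIF4A, pAbp, eEF1alpha1 or eEF2. The region from 31742201 to 31742600, at 81.3% of the span, had 19.5, 58.2 and 12.4 CLIP reads per bin, beside 34.8, 31.9 and 24.8 reads of input. Its centred ratio of −0.74 ± 0.22 (SD, n = 3) was the highest of the 8 regions that the lists share in this gene, and the lowest was −1.37 ± 0.20 (SD, n = 3) at 31740351 to 31740400. Each of these regions lay in a longer peak of 1300 or 450 bp in replicate 1, so they are not independent there.

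The eEF1alpha genes encode closely similar proteins, and how reads that match both were counted is not given in the sources used here, so their values may not be independent. Per called bin eEF1alpha1 had 79.1, 204 and 41.3 CLIP reads and eEF1alpha2 had 16.7, 47.5 and 10.2, over 46, 44 and 41 bins in eEF1alpha1 and 43, 27 and 25 in eEF1alpha2. These are reads in called bins, which were called separately in each gene and list, so they do not measure how much more RNA came from one gene than from the other, and no test of the difference is given.

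The translocation factor gene eEF2 (chromosome 2L, 21677913 to 21682164) had the largest share of its span covered, at 71.7%, 64.7% and 64.7%. All of its 6, 5 and 6 peaks were on the minus strand, and 53 of 61 bins were called in all 3 lists. The region from 21678101 to 21679400, towards the 3′ end, had 45.4, 98.2 and 22.8 CLIP reads per bin, beside 117, 97.7 and 86.7 reads of input. Its centred ratio was −1.52 ± 0.06 (SD, n = 3). Among the 5 regions of eEF2 that the lists share, the lowest mean ratio, −2.0 ± 0.31 (SD, n = 3), lay towards the other end at 21681401 to 21681550, where 37.5, 58 and 14.7 CLIP reads per bin stood against 107, 82.8 and 99.4 input reads. It was the lowest in replicates 2 and 3, at −2.09 and −2.26, but not in replicate 1, where it had −1.66 and the peak from 21680501 to 21680650 had −2.07. The small RNA gene sncRNA:254, inside the span at 21680670 to 21680700, had no peak in any list.

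**Figure D2:**
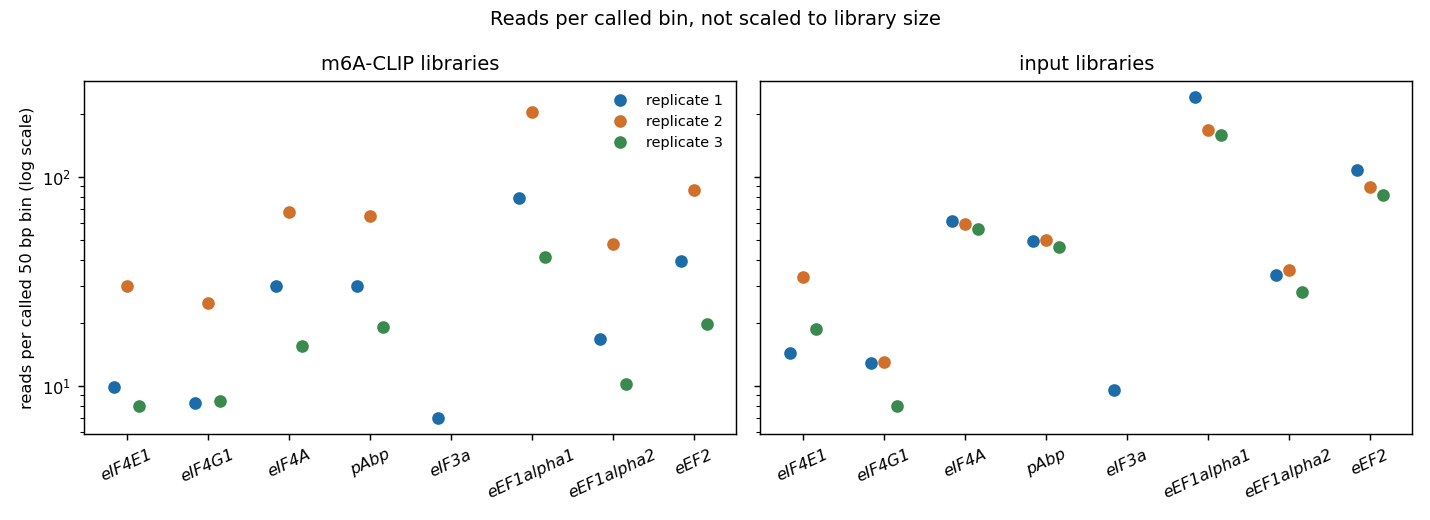
Reads per called bin of 50 bp in each gene and replicate (log scale, not scaled to library size), in the CLIP libraries on the left and the input libraries on the right. CLIP values are plain means, and input values are bin-weighted means of the geometric means of peaks. eEF1alpha1 is highest in every library, at 79.1, 204 and 41.3 CLIP reads and 241, 167 and 159 input reads, and eIF5B, which had no peak, is not shown.

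Input reads within called bins spanned a wide range. They cover only bins that were called, which differ between genes and lists, and are not a measure of the whole transcript. Input per called bin is the mean of the geometric means of a gene's peaks, weighted by their bins. CLIP per called bin is a plain mean. Per called bin, eEF1alpha1 had 241, 167 and 159 input reads, eEF2 107, 89.8 and 82.0, and eIF4A 61.1, 59.7 and 56.5. pAbp followed with 49.2, 49.6 and 45.9 and eEF1alpha2 with 34.0, 35.8 and 28.1. These 5 genes held the same order in each replicate without overlap between neighbours. eIF4E1 had 14.4, 33.0 and 18.7 and eIF4G1 12.8, 13.0 and 8, where the values of replicate 2 come from 1 bin in each gene. CLIP reads per called bin gave the same first place in each replicate, with eEF2 second at 39.3, 86.7 and 19.7. For eIF4A (30.2, 67.6 and 15.5) and pAbp (29.9, 65.0 and 19.1) the order differed between replicates.

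Shared positions formed 35 regions of 10200 bp in 7 genes. pAbp had 13, eEF1alpha2 8, eIF4A 5, eEF2 5, eEF1alpha1 2, and eIF4E1 and eIF4G1 1 each. In eEF1alpha1 and eIF4A every bin called in replicate 3 was also called in both other lists, and in eEF2 96.4% were, in pAbp 93.3%, in eEF1alpha2 76.0%, in eIF4G1 50.0% and in eIF4E1 33.3%. Replicate 3 has the fewest peaks, and shares of replicate 1 bins were lower. Of these, 89.1% were called in all lists in eEF1alpha1, 86.9% in eEF2 and 82.5% in eIF4A. The share was 70.9% in pAbp, 44.2% in eEF1alpha2, 7.69% in eIF4E1, 5.56% in eIF4G1 and 0% in eIF3a. Merging peaks of a list that lay at most 50 bp apart left 23 regions. The same shares over all genes of the lists are not given here, so these shares do not set the genes apart from others.

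**Figure D3:**
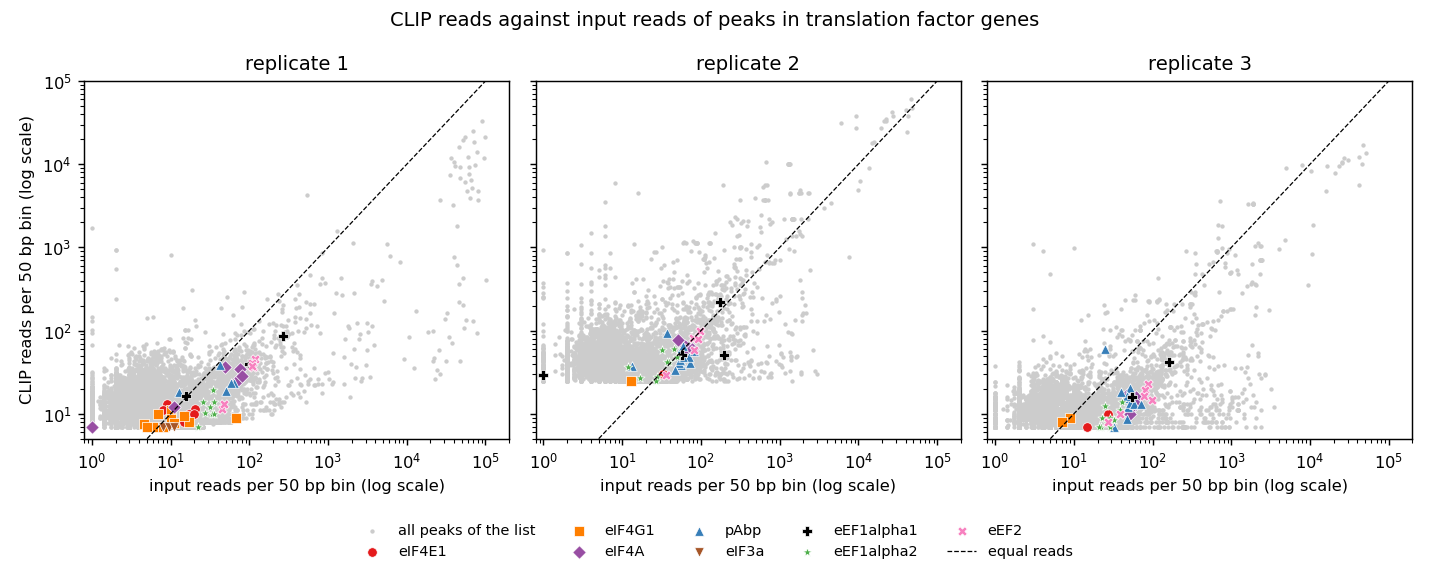
CLIP reads against input reads per 50 bp bin (both log scale) for all peaks of each list (grey) and the peaks of the 8 genes, with the dashed line at equal reads. CLIP reads were fewer than input reads in 40 of 52, 19 of 37 and 36 of 39 peaks of these genes in replicates 1, 2 and 3.

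Peaks of the translation factor genes had few CLIP reads for their input. CLIP reads were fewer than input reads in 40 of 52 peaks in replicate 1 (76.9%, against 44.3% of all peaks of that list), in 19 of 37 in replicate 2 (51.4% against 17.0%) and in 36 of 39 in replicate 3 (92.3% against 55.7%). In total 115 of 128 peaks (89.8%) had a ratio below the median of their list, where 50% of all peaks lie by construction. Peaks in 1 gene, and peaks of the same region in several lists, are not independent, so this pooled share is a description. The median over the peaks of a gene was below 0 in each replicate for 6 of the 7 genes with peaks in all lists. The lowest was eEF2, with −1.71, −1.79 and −1.53 in replicates 1, 2 and 3 and a mean of −1.67 ± 0.13 (SD, n = 3). pAbp had −1.46, −1.94 and −1.47, with a mean of −1.62 ± 0.27. eEF1alpha1 had −1.47, −1.52 and −1.41, the tightest set, with a mean of −1.46 ± 0.06. The peak over snoRNA:Me28S-A1322 enters the value of each replicate. It is itself the replicate 1 value. In replicates 2 and 3 the value lies midway between that peak (−1.78 and −1.30) and the peak of 2000 bp (−1.26 and −1.51). The gene's 4 peaks in replicate 2 ran from −3.53 to 2.32. Without peaks over small nucleolar RNA genes, an alternative chosen after seeing the data, the mean of eEF1alpha1 was −1.24 ± 0.27. The values of eIF4A, −0.94, −1.58 and −1.71, were spread more widely around −1.41 ± 0.41. Its replicate 1 value includes the peak on the opposite strand. With peaks on the main strand only, the mean of eIF4A was −1.52 ± 0.22. eEF1alpha2 had −1.50, −1.40 and −1.12, with a mean of −1.34 ± 0.20, and eIF4E1 had −0.88, −1.72 and −0.74, with a mean of −1.11 ± 0.53. The spread of each of these genes overlaps that of its neighbour in this order. For eIF4G1 the mean was −0.18 ± 0.61 (SD, n = 3), with −0.34, −0.69 and 0.50 in replicates 1, 2 and 3, so its sign differed between replicates. The two-sided exact sign-flip permutation test of each gene against 0 gave p = 0.25 for the 6 genes, the smallest that 3 replicates allow, and p = 0.75 for eIF4G1, before any adjustment over the 7 genes.

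**Figure D4:**
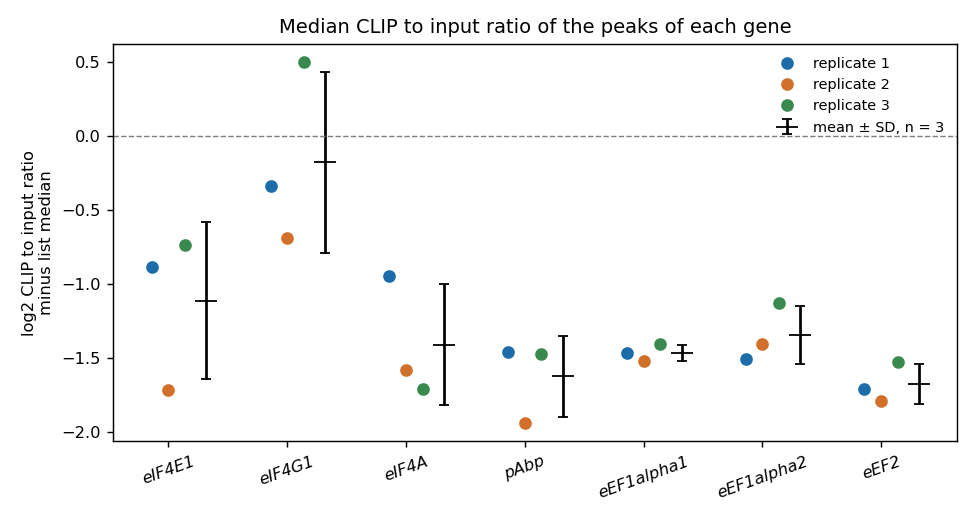
Median log2 CLIP to input ratio of the peaks of each gene minus the median of the list, for the 7 genes with a peak in every list (points are replicates, bars are mean ± SD, n = 3). eIF4G1, at −0.18 ± 0.61, is the gene whose replicates lie on both sides of 0.

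Over all 1904 genes with a peak in each list, the mean of this measure over replicates had a median of 0.69 and quartiles of −0.75 and 1.44. That mean lay below 0 in 38.3% of these genes, and in all 7 of the translation factor genes. The share of all genes below 0 in each replicate is not given here. Input, the denominator of the ratio, was higher in these peaks. The median input of peaks in the translation factor genes was 20.2, 53.9 and 47.0 reads per bin, against 8, 13 and 14 in the lists, and 25.0%, 56.8% and 41% of their peaks had at least 50 input reads per bin, against 5.32%, 16.0% and 16.4%. Among all peaks with at least 50 input reads the median ratio was −1.78, −1.87 and −1.70, which is near the values of eEF2 and pAbp. The part of input abundance in the low ratios was not tested. Peaks of 500 bp or more numbered 9, 7 and 7 (17.3%, 18.9% and 17.9%, against 2.37%, 2.57% and 1.88% of the lists). They lay in eEF2, eIF4A, pAbp and eEF1alpha1, and 1 in eEF1alpha2 in replicate 1, while eIF4E1, eIF4G1 and eIF3a had none. The median width of the genes' peaks was 100, 150 and 150 bp.

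Along the spans, few peaks of the 8 genes lay near the 5′ end. Their median position, from 0% at the 5′ end, was 59.3%, 61.8% and 66.0% of the span, a mean of 62.4% ± 3.4 (SD, n = 3), against 57.5%, 40.9% and 43.8%, a mean of 47.4% ± 8.9, for all peaks in exactly 1 span. The first 20% of the span held 11.5%, 5.41% and 5.13% of their peaks, against 29.7%, 38.1% and 35.9% of all peaks. The last 20% held 17.3%, 21.6% and 28.2%, against 31.2%, 22.7% and 23.6%. Near the 3′ end the share was thus below that of all peaks in replicates 1 and 2 and above it in replicate 3. Each peak counted once, at its midpoint, whatever its width. The eEF1alpha1 peak of 2000 bp, which ends at 11895550 in a span ending at 11895762, was placed at 73.8% and not in the last 20%. Genes did not count equally, with 30 peaks in pAbp and 27 in eEF1alpha2 over the 3 lists. The parts of peak width and of peak number per gene in these shares were not tested. Exon positions were not used here, and peaks in 1 gene are not independent, so these shares are a description.

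Another 51 translation factor genes were looked up by name, and 17 of them (33.3%) had a peak in all 3 lists, against 13.7% of all genes. The 51 genes were listed with earlier results of these data known, and whether or not heads express them. The part of expression in this share was not tested. Of these 17, 4 had peaks that also lie in another protein-coding span, among them eIF4G2 with 3 of 3 and eIF5 with 7 of 7 peaks, and 15 genes were left when such peaks were not counted. A further 8 had one in 2 lists, 4 in 1 list and 22 in none. Of the elongation factors, 3 of 5 had a peak in all lists, of the eIF3 subunits 5 of 15, of the eIF4 group 3 of 10, of eIF2, its exchange factor eIF2B, eIF2A and eIF2D 2 of 10, and of the termination and recycling factors 1 of 3. The 12 with the best mean rank of their highest CLIP value were eIF4EHP, eEF5, eEF1gamma, eEF1beta, eIF3m, eIF3l, pix, eIF1A, NAT1, eIF4H1, eIF3h and eIF3b.

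Among the elongation partners, eEF1gamma, a subunit of the complex that recharges eEF1alpha with GTP, had 8, 8 and 10 peaks, with up to 23.9, 70.5 and 19 CLIP reads per bin and a centred ratio of −1.29 ± 0.14 (SD, n = 3). eEF1beta, the nucleotide exchange subunit, had −1.07 ± 0.30, and eEF5, the hypusine-containing factor also called eIF5A, had −1.32 ± 0.32 (SD, n = 3 for each). Values on the other side of 0 were found as well. eIF4EHP, a cap-binding protein that represses translation, had 0.91, 1.36 and 1.42 in replicates 1, 2 and 3, but 18 of its 28 peaks also lie in another protein-coding gene span. eIF4H1, named for its similarity to a cofactor of the helicase, had 0.22, 1.35 and 1.58 from 6, 2 and 1 peaks. Of the 17 genes, 11 had a mean below 0 and 9 were below 0 in each replicate, with a median over genes of −0.62.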

How the data were processed

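The authors deposited 3 peak lists without headers, one for each replicate number, and the labels of a CLIP library and of its same-numbered input name the same list. STAR 2.7.5a and the builds dm6 and BDGP6 are named in the submitters' processing notes, while the peak caller and its thresholds are not given in the sources used here. The deposited signal gives CLIP reads as a mean over a peak's 50 bp bins, inferred from its product with the number of bins, which was whole (within 0.01) in 99.7% or more of the peaks of each list. Input was deposited on a natural log scale as the peak's mean, and its exponential was whole in 99.6% or more of the 1-bin peaks. Its lowest value gives 1 read, and whether that stands for 0 or 1 is not known. The authors' p-value of a peak was used to rank peaks in alternatives.

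Gene spans came from NCBI RefSeq, Release 6 plus ISO1 MT (dm6), without strand or exons. Strand was taken from most of a gene's peaks. Protein-coding spans held 91.0% to 97.3% of peaks, and 79.5% to 86.8% once peaks were shifted by 500 bp. Coordinates are 1-based. Genome and transcript sequence was not used here. Ratios used a pseudocount of 1 within a list, a replicate block in which the list itself pairs CLIP and input. At 644 peaks of identical ends in every list, deviations of same-numbered libraries correlated at 0.189, 0.0105 and 0.193, and those of differently numbered libraries at −0.231 to 0.115, so replicate 2 does not show the pairing and it rests on the labels. Total library depths are unknown, and read counts are not independent molecules, so replicate SDs carry the error. Tests were two-sided exact sign-flip permutation tests over replicates. The members, the list of 51 other factors and the markers were chosen with earlier results of these data known. The other factors named are the 12 best by mean rank of their highest CLIP value, among genes found in every list. Functions were tested on simulated data first. Analyses used Python 3.11.15, numpy 2.4.6 and pandas 2.3.3.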

Additional observations from a re-analysis of the deposited data

How the results depend on the processing

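The 7 genes with a peak in all 3 lists numbered 5 when the 50% of peaks lowest in p-value were kept, 6 with equal numbers of peaks per list, and 7 without any 1 replicate. The 35 shared regions fell to 17 and 19 under these first 2 settings and to 23 with neighbouring peaks merged. The lowest p-values left 9 of the 17 other translation factor genes. The median over genes of the centred ratio was −1.48 ± 0.09 (SD, n = 3). It became −1.65 with the lowest p-values, −1.72 with equal lists, −1.29 with a pseudocount of 5, −0.94 with each gene's peak of most CLIP reads, −0.93 with 1-bin peaks, which 3 genes have in all lists, and −1.34 without peaks over small nucleolar RNA genes, an alternative chosen after seeing the data. Without 1 replicate it ranged from −1.52 to −1.43. At shared regions it was −1.41 if fitted as no replicate block and −1.40 under a replicate block, the latter also chosen after seeing the data, so pairing changed no direction. Over 98 values of single genes, 2 changed direction: pAbp became 0.37 with its peak of most CLIP reads, and eIF4G1 ranged from −0.52 to 0.080 without 1 replicate. No p could pass 0.05 at this number of replicates. The median position of 62.4% became 67.1% with the lowest p-values and 73.8% when weighted by CLIP reads, which in each replicate is the position of 1 peak, the eEF1alpha1 peak of 2000 bp. Causes of these moves were not tested. Peaks near the read minimum (eIF3a, eIF4G1, eIF4E1) set what depth can show.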
